A study of Homo sapiens with 12 samples.

Results

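Genes of mitosis and of the passage from G2 into mitosis were followed in HK-2 cells, an immortalised line of human renal proximal tubular epithelium, on 12 Affymetrix arrays. The 46 genes were taken from a list of cyclins, mitotic kinases, checkpoint, kinetochore, spindle and cytokinesis genes, out of 19775 genes with a probe set of their own. Where a gene had several probe sets, the one brightest on average was taken, and 45 of the 46 passed the filter on low values, as did 10508 of the 19775 genes. The exception was INCENP, the scaffold of the chromosomal passenger complex, whose only probe set lay between 2.09 and 2.48 on the log2 scale on all arrays.

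There were 4 groups of 3 arrays, each labelled as biological replicates 1 to 3: cells exposed to CsA (ciclosporin A, a calcineurin inhibitor with known kidney toxicity) for 48 h, control cells at 48 h, cells exposed to CsA for 12 h, and control cells at 12 h. Controls received the vehicle alone, and the dose of CsA is not stated in the labels. All cells were seeded 24 h before treatment and were treated at about 90% confluency in a medium with EGF, insulin and hydrocortisone, so time in culture rises with time of exposure in both arms. The comparisons ask what CsA did at each time and, since the times were both measured with their own controls, how the same genes differed between 48 h and 12 h.

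Cells build up mitotic cyclins and CDK1 through G2, enter mitosis when CDC25 phosphatases and PLK1 activate CDK1, and leave it when the anaphase-promoting complex, with its activator CDC20, destroys cyclin B and securin. Most genes of this programme are transcribed in G2 under the factors FOXM1 and MYBL2 with the MuvB complex, and are repressed in resting cells by the DREAM complex, so their mRNAs follow how many cells in a culture are cycling. Proximal tubule cells divide rarely in the resting kidney and re-enter the cycle after injury, whereas a cell line such as HK-2 divides in culture.

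No member passed the test between CsA and control cells at 12 h or at 48 h, whereas 44 of the 45 tested members lay below 0 at 48 h against 12 h in both arms, as did 49% of all genes under CsA and 49.1% in control. In control cells 34 of 45 fell between the times, where 13.7% of all genes tested did, and the median log2 difference over the members was -1.19, a 2.28-fold lower level, against 0.01 over all genes. Under CsA 15 of 45 fell, where 7.58% of all genes did, and the median log2 difference was -1.10, a 2.15-fold lower level, against 0.01 over all genes. The counts of 34 and 15 do not measure a weaker fall under CsA. P was adjusted within each comparison, where 26.2% of all genes passed in control and 14.4% under CsA. TOP2A differed by -0.95 in both arms, with limma's adjusted p at 0.0432 in control and 0.0614 under CsA. The difference between the arms, tested directly, passed for 0 members. CDC25B, the phosphatase that starts CDK1 activation, was the only member above 0 in either arm. It rose in control cells, where 12.5% of all genes did, and did not pass the test under CsA, where 6.77% rose. The mRNA of a culture is measured as a whole here, so fewer cells in G2 or mitosis and less mRNA in each such cell cannot be told apart.

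The labelled cell type was checked on its markers. Of 10 epithelial and tubule markers on the array, 9 were above 4 on the log2 scale on all arrays of at least 1 group, and 8 on every array. KRT8, KRT18, EPCAM and PAX8 were among the 9. By the same rule 0 of 9 markers of the mature proximal tubule were above 4, LRP2, CUBN and AQP1 included. Leukocyte markers were above 4 for 0 of 5 genes, endothelial markers for 1 of 6 (PECAM1), podocyte and distal tubule markers for 2 of 6 and fibroblast markers for 4 of 8 (COL1A1, DCN, LUM and ACTA2). The summed linear level of the fibroblast markers ranged from 712 to 2164 in CsA arrays at 48 h, from 841 to 2060 in control arrays at 48 h, from 1250 to 1763 in CsA arrays at 12 h and from 1201 to 1797 in control arrays at 12 h. Their part in the results below was not tested. On every array, between 38.3% and 38.8% of probe sets were above 4.

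**Figure D1:**
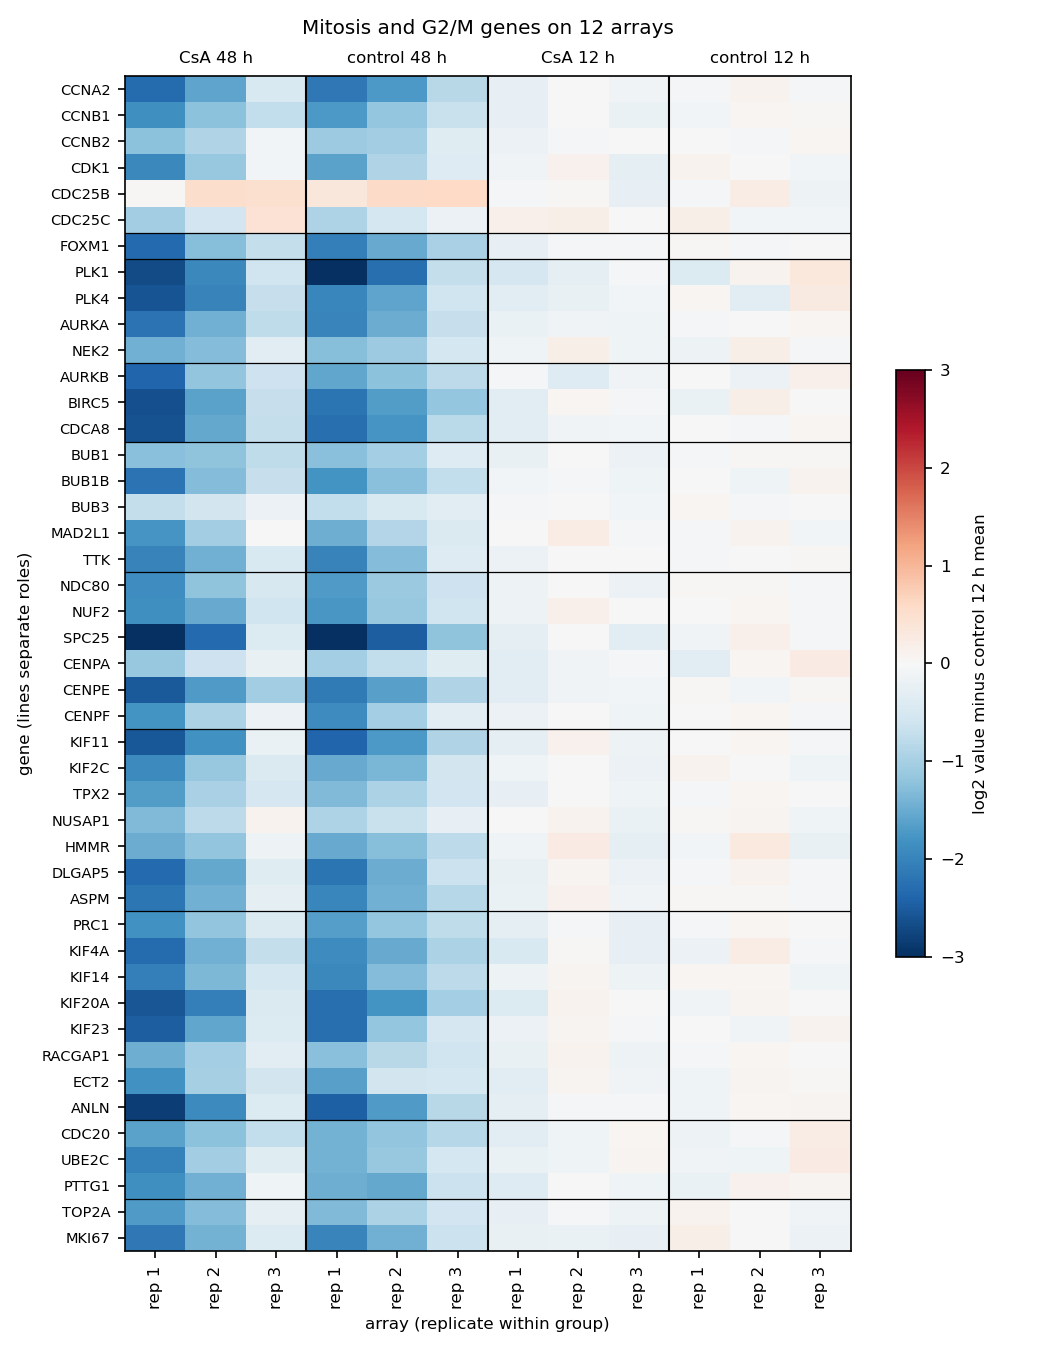
Log2 value of 45 mitosis and G2/M genes (rows, grouped by role) on each of 12 arrays (columns, CsA left of control, 48 h left of 12 h), each minus that gene's mean over the 3 control arrays at 12 h. Blue stands for lower and red for higher. The 48 h arrays are blue in nearly every row, palest in replicate 3 of both arms. CDC25B is pale red at 48 h, and close to white on replicate 1 under CsA.

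Promoters of many members held short sequence elements. The genes were chosen by role and not by sequence. Because genes of this role are known targets of MuvB complexes, the shares below describe the list and are not a result of these arrays. In the RefSeq windows of 300 bases (250 before to 50 after each start, GRCh38.p14), 38 of the 46 members had an entry, with 50 windows in all. Both strands were searched for TTTGAA, the core of the cell cycle genes homology region to which MuvB complexes bind, and for CCAAT, the box bound by NF-Y. The motifs can share an end base, and each was counted without regard to the other. TTTGAA was found in 31 of the 50 member windows (62%) and in 15.16% of 35116 windows of all genes. CCAAT was found in 37 of 50 (74%) and in 34.61% of all windows, at 2 or more positions in 22 of 50 (44%) and in 10.75% of all windows, and together with TTTGAA in 25 of 50 (50%) and in 5.903% of all windows. CDC25B, which moved the other way from the rest, had 4 windows, with TTTGAA in 0 of them and CCAAT in 2. The absence of TTTGAA was not particular to it, since 28 of the 38 members held the motif. The others without it were AURKB, BUB1, CCNA2, CCNB1, CENPE, KIF20A, KIF2C, NEK2 and PTTG1, all below 0 in both arms. A link between the motifs and the direction of change was not tested. A match is a description of the letters and does not show that a site is bound. Only these exact letters were searched, so windows without TTTGAA were not checked for variants of the element. The 150 bases before the start are shown for 6 members, as examples of how the elements lie, with each motif in capitals, on either strand.
CCNB2: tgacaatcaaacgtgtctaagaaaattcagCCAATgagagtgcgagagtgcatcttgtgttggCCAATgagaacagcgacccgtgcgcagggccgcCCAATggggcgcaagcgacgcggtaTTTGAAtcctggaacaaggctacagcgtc
PLK1: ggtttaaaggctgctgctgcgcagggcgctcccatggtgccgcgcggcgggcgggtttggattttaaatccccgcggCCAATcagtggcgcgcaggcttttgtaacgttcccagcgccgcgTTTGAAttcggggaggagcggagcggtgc
KIF11: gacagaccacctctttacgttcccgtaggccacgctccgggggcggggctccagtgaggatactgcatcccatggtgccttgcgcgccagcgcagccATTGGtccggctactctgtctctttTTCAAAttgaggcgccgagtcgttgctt
PRC1: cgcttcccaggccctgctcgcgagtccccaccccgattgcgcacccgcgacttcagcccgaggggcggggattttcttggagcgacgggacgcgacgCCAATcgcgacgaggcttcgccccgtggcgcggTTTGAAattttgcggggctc
CDC20: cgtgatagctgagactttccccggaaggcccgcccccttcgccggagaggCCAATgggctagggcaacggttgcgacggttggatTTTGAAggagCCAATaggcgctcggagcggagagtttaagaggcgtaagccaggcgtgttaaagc
CCNB1: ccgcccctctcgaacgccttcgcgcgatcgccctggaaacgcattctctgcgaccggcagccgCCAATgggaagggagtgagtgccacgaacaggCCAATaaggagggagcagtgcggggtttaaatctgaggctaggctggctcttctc
These lie at chr15:59104996-59105145 (+) for CCNB2, chr16:23678739-23678888 (+) for PLK1, chr10:92592980-92593129 (+) for KIF11, chr15:90994536-90994685 (-) for PRC1, chr1:43358831-43358980 (+) for CDC20 and chr5:69167000-69167149 (+) for CCNB1, with the strand in brackets. Within these 150 bases CCNB2 holds CCAAT at 120, 87 and 54 bases before the start and TTTGAA at 29 bases. In PLK1, KIF11 and PRC1 TTTGAA lies 29, 28 and 20 bases before the start, with 1 CCAAT at 73, 53 and 53 bases. In CDC20 TTTGAA lies at 65 bases, between CCAAT at 100 and at 55 bases. CCNB1 has CCAAT at 87 and 55 bases, and TTTGAA is not in its window of 300 bases. Further upstream in that window, outside the bases shown, CCNB2 has another CCAAT and CDC20 another TTTGAA.

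Among the cyclins, CDK1 and the CDC25 phosphatases, 3 of 6 fell in control cells (13.7% of all genes), 1 rose (12.5%) and 2 did not pass the test. Under CsA 1 of 6 fell (7.58% of all genes). Values below are log2 levels on single arrays, given for replicates 1, 2 and 3 in that order. At 48 h, CCNB1 had log2 levels of 10.60, 11.22 and 11.72 under CsA, against 10.72, 11.28 and 11.79 in control. At 12 h, CCNB1 had log2 levels of 12.19, 12.45 and 12.25 under CsA, against 12.36, 12.50 and 12.47 in control. Cyclin B1, the partner that carries CDK1 into mitosis, was thus lower on every 48 h array than on any 12 h array, and CsA and control arrays overlapped at both times. CCNB1 fell under CsA, with a log2 difference of -1.12 (SE 0.29, adjusted p = 0.0321), and in control, with -1.18 (SE 0.29, adjusted p = 0.0169). At 48 h, CCNA2 had log2 levels of 8.62, 9.34 and 10.47 under CsA, against 8.78, 9.22 and 10.09 in control. At 12 h, CCNA2 had log2 levels of 10.69, 10.92 and 10.83 under CsA, against 10.88, 11.03 and 10.90 in control. All 48 h arrays of cyclin A2, which acts in S phase and G2, lay below the 12 h arrays. CCNA2 had a log2 difference of -1.34 (SE 0.42, adjusted p = 0.0575) under CsA and -1.57 (SE 0.42, adjusted p = 0.0228) in control, where it passed the test. CCNB2, the second B-type cyclin, had a log2 difference of -0.68 (SE 0.27, adjusted p = 0.11) under CsA and -0.83 (SE 0.27, adjusted p = 0.0445) in control, where it fell.

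At 48 h, CDK1 had log2 levels of 9.64, 10.43 and 11.49 under CsA, against 9.96, 10.66 and 11.17 in control. At 12 h, CDK1 had log2 levels of 11.46, 11.69 and 11.30 under CsA, against 11.66, 11.55 and 11.47 in control. CDK1, the kinase at the centre of mitotic entry, was low on the first 2 replicates of both 48 h groups, while replicate 3 under CsA at 48 h reached the range of the 12 h arrays. Its log2 difference between the times did not pass the test, at -0.97 (SE 0.41, adjusted p = 0.132) under CsA and -0.97 (SE 0.41, adjusted p = 0.103) in control. At 48 h, CDC25B had log2 levels of 10.84, 11.33 and 11.27 under CsA, against 11.13, 11.37 and 11.39 in control. At 12 h, CDC25B had log2 levels of 10.74, 10.84 and 10.54 under CsA, against 10.74, 11.01 and 10.63 in control. The 48 h control arrays of CDC25B were all above the 12 h control arrays, and under CsA replicate 1 at 48 h overlapped the 12 h arrays. CDC25B had a log2 difference of 0.44 (SE 0.16, adjusted p = 0.0864) under CsA and rose in control, with 0.50 (SE 0.16, adjusted p = 0.041), a 1.42-fold higher level. CDC25C, a later-acting phosphatase of the same family, had a log2 difference of -0.50 (SE 0.32, adjusted p = 0.295) under CsA and -0.55 (SE 0.32, adjusted p = 0.22) in control.

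At 48 h, FOXM1 had log2 levels of 6.35, 7.38 and 7.94 under CsA, against 6.61, 7.16 and 7.70 in control. At 12 h, FOXM1 had log2 levels of 8.43, 8.61 and 8.63 under CsA, against 8.71, 8.64 and 8.66 in control. FOXM1, the transcription factor of the G2 programme, was lower on all 48 h arrays than on all 12 h arrays. It fell under CsA, with a log2 difference of -1.33 (SE 0.36, adjusted p = 0.0357), and in control, with -1.51 (SE 0.36, adjusted p = 0.0149). The level of FOXM1 was 2.52-fold lower under CsA and 2.84-fold lower in control.

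All 4 mitotic kinases outside the checkpoint fell in control cells (13.7% of all genes) and 3 of 4 fell under CsA (7.58%). At 48 h, PLK1 had log2 levels of 6.48, 7.24 and 8.56 under CsA, against 6.02, 6.90 and 8.45 in control. At 12 h, PLK1 had log2 levels of 8.65, 8.89 and 9.13 under CsA, against 8.74, 9.27 and 9.47 in control. PLK1, which drives mitotic entry, centrosome maturation and cytokinesis, was lowest on replicate 1 of both 48 h groups, and its replicate 3 arrays at 48 h came close to the 12 h arrays without overlapping them. The log2 difference of PLK1 was -1.46 (SE 0.61, adjusted p = 0.123) under CsA and did not pass the test, and it fell in control, with -2.04 (SE 0.61, adjusted p = 0.0332), a 4.1-fold lower level. At 48 h, AURKA had log2 levels of 9.69, 10.48 and 11.16 under CsA, against 9.92, 10.41 and 11.22 in control. At 12 h, AURKA had log2 levels of 11.70, 11.81 and 11.77 under CsA, against 11.87, 11.89 and 11.97 in control. AURKA, the Aurora kinase of centrosomes and spindle poles, had its 48 h arrays below its 12 h arrays in both arms. It fell by a log2 difference of -1.32 (SE 0.36, adjusted p = 0.0378) under CsA and of -1.39 (SE 0.36, adjusted p = 0.0205) in control. At 48 h, PLK4 had log2 levels of 6.74, 7.33 and 8.63 under CsA, against 7.38, 7.75 and 8.73 in control. At 12 h, PLK4 had log2 levels of 9.01, 9.10 and 9.24 under CsA, against 9.39, 8.98 and 9.61 in control. PLK4, which sets off centriole duplication, fell in both arms, with a log2 difference of -1.55 (SE 0.45, adjusted p = 0.045) under CsA and -1.37 (SE 0.45, adjusted p = 0.0459) in control, and its groups at 48 h and 12 h did not overlap. NEK2, a kinase that separates centrosomes, fell too, with a log2 difference of -0.999 (SE 0.28, adjusted p = 0.0409) under CsA and -0.96 (SE 0.28, adjusted p = 0.0308) in control.

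The chromosomal passenger complex corrects faulty attachments of chromosomes to the spindle. Its 3 tested members fell in control cells (13.7% of all genes), and 1 of 3 fell under CsA (7.58%). At 48 h, BIRC5 had log2 levels of 8.35, 9.36 and 10.28 under CsA, against 8.79, 9.31 and 9.82 in control. At 12 h, BIRC5 had log2 levels of 10.65, 11.04 and 10.92 under CsA, against 10.79, 11.16 and 10.99 in control. Survivin, the product of BIRC5, brings the complex to centromeres, and its 48 h arrays lay below all 12 h arrays. BIRC5 fell by a log2 difference of -1.54 (SE 0.41, adjusted p = 0.0344) under CsA and of -1.67 (SE 0.41, adjusted p = 0.0166) in control. At 48 h, AURKB had log2 levels of 7.73, 8.92 and 9.48 under CsA, against 8.54, 8.87 and 9.31 in control. At 12 h, AURKB had log2 levels of 10.04, 9.70 and 9.98 under CsA, against 10.12, 9.93 and 10.25 in control. AURKB, the kinase of the complex, had no overlap between the times, and its lowest array was replicate 1 under CsA at 48 h. AURKB had a log2 difference of -1.20 (SE 0.37, adjusted p = 0.0523) under CsA, just outside the threshold of 0.05, and -1.19 (SE 0.37, adjusted p = 0.0373) in control, where it passed. For CDCA8, which codes for borealin, another subunit, the log2 difference was -1.45 (SE 0.44, adjusted p = 0.0519) under CsA and -1.60 (SE 0.44, adjusted p = 0.0247) in control.

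**Figure D2:**
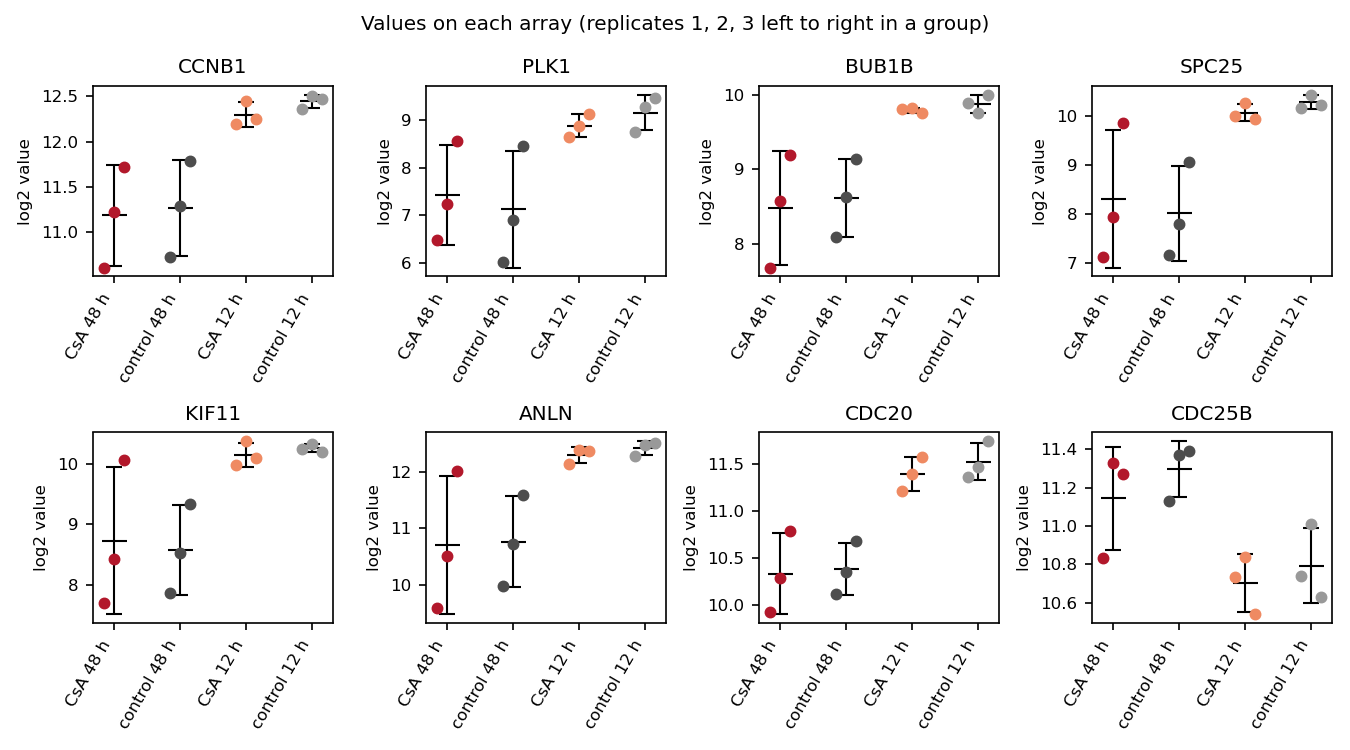
Log2 values (vertical axis, own scale for each gene) of 8 genes on the 3 arrays of each group, with group means and SD as black bars. For CCNB1, PLK1, BUB1B, SPC25, ANLN and CDC20 all 48 h points lie below all 12 h points within each arm, and KIF11 overlaps under CsA through replicate 3. CDC25B has higher means at 48 h and overlaps under CsA through replicate 1.

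The spindle checkpoint holds anaphase until every chromosome is attached. In control cells 3 of 5 members fell (13.7% of all genes) and under CsA 2 of 5 (7.58%). At 48 h, BUB1 had log2 levels of 8.80, 8.85 and 9.29 under CsA, against 8.81, 9.04 and 9.67 in control. At 12 h, BUB1 had log2 levels of 9.84, 10.08 and 9.89 under CsA, against 10.01, 10.09 and 10.09 in control. BUB1, a kinase that recruits the other checkpoint proteins to kinetochores, was lower on every 48 h array than on any 12 h array. Its log2 difference was -0.96 (SE 0.21, adjusted p = 0.0172) under CsA and -0.89 (SE 0.21, adjusted p = 0.0135) in control, among the lowest adjusted p of the members in both arms. At 48 h, BUB1B had log2 levels of 7.68, 8.57 and 9.19 under CsA, against 8.08, 8.63 and 9.14 in control. At 12 h, BUB1B had log2 levels of 9.81, 9.82 and 9.75 under CsA, against 9.89, 9.76 and 10.00 in control. BUB1B codes for BUBR1, which inhibits CDC20 directly, and its 48 h and 12 h arrays did not overlap. BUB1B fell by a log2 difference of -1.31 (SE 0.34, adjusted p = 0.0322) under CsA and of -1.26 (SE 0.34, adjusted p = 0.0237) in control. At 48 h, MAD2L1 had log2 levels of 10.37, 11.09 and 12.14 under CsA, against 10.68, 11.26 and 11.70 in control. At 12 h, MAD2L1 had log2 levels of 12.16, 12.36 and 12.07 under CsA, against 12.10, 12.25 and 12.06 in control. MAD2L1, whose product MAD2 also binds CDC20, had 1 array under CsA at 48 h, replicate 3, within the range of the 12 h arrays. The log2 difference of MAD2L1 did not pass the test, at -0.995 (SE 0.38, adjusted p = 0.101) under CsA and -0.92 (SE 0.38, adjusted p = 0.094) in control. TTK, the kinase MPS1 that starts checkpoint signalling, had a log2 difference of -1.24 (SE 0.41, adjusted p = 0.0672) under CsA and -1.23 (SE 0.41, adjusted p = 0.0509) in control. BUB3, a partner of BUB1 and BUBR1, had the smallest log2 differences of the checkpoint genes, -0.43 (SE 0.15, adjusted p = 0.0724) under CsA and -0.51 (SE 0.15, adjusted p = 0.0294) in control, where it fell.

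Among 6 kinetochore and centromere genes, 4 fell in control cells (13.7% of all genes) and 2 under CsA (7.58%). At 48 h, SPC25 had log2 levels of 7.13, 7.94 and 9.86 under CsA, against 7.18, 7.80 and 9.06 in control. At 12 h, SPC25 had log2 levels of 10.00, 10.25 and 9.94 under CsA, against 10.16, 10.43 and 10.23 in control. SPC25, a subunit of the NDC80 complex that holds microtubules, was the member with the largest log2 difference in control cells, and its spread over the 48 h arrays was wide. Its log2 difference was -1.75 (SE 0.62, adjusted p = 0.0807) under CsA and -2.26 (SE 0.62, adjusted p = 0.0244) in control, a 4.79-fold lower level that passed the test. At 48 h, NDC80 had log2 levels of 8.06, 8.69 and 9.44 under CsA, against 8.22, 8.80 and 9.28 in control. At 12 h, NDC80 had log2 levels of 9.76, 9.92 and 9.74 under CsA, against 9.94, 9.94 and 9.85 in control. NDC80, which gives this complex its name, had no overlap between the times in either arm. Between the times NDC80 had a log2 difference of -1.08 (SE 0.32, adjusted p = 0.0505) under CsA and -1.14 (SE 0.32, adjusted p = 0.0279) in control, where it passed the test. At 48 h, NUF2 had log2 levels of 8.26, 8.59 and 9.52 under CsA, against 8.36, 8.96 and 9.51 in control. At 12 h, NUF2 had log2 levels of 9.95, 10.26 and 10.12 under CsA, against 10.10, 10.16 and 10.06 in control. NUF2, the partner of NDC80, fell in both arms, by a log2 difference of -1.32 (SE 0.33, adjusted p = 0.0263) under CsA and of -1.16 (SE 0.33, adjusted p = 0.027) in control, with all 48 h arrays below all 12 h arrays.

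At 48 h, CENPE had log2 levels of 6.46, 7.30 and 7.95 under CsA, against 6.88, 7.35 and 8.08 in control. At 12 h, CENPE had log2 levels of 8.66, 8.89 and 8.89 under CsA, against 9.02, 8.91 and 9.03 in control. CENPE, a kinetochore motor that brings chromosomes to the spindle equator, fell in both arms without overlap, by a log2 difference of -1.58 (SE 0.36, adjusted p = 0.0196) under CsA and of -1.55 (SE 0.36, adjusted p = 0.0127) in control. At 48 h, CENPF had log2 levels of 10.08, 10.93 and 11.69 under CsA, against 9.99, 10.85 and 11.52 in control. At 12 h, CENPF had log2 levels of 11.71, 11.87 and 11.76 under CsA, against 11.88, 11.92 and 11.82 in control. CENPF, a large kinetochore protein made in G2, had no overlap between the times, with replicate 3 under CsA at 48 h just under the 12 h arrays. CENPF had a log2 difference of -0.88 (SE 0.41, adjusted p = 0.161) under CsA and -1.09 (SE 0.41, adjusted p = 0.0712) in control, and neither passed. At 48 h, CENPA had log2 levels of 7.47, 7.99 and 8.38 under CsA, against 7.59, 7.86 and 8.25 in control. At 12 h, CENPA had log2 levels of 8.28, 8.51 and 8.55 under CsA, against 8.31, 8.68 and 8.85 in control. CENPA, the histone H3 variant that marks centromeres, had smaller differences, and replicate 3 under CsA at 48 h overlapped the 12 h arrays. Its log2 difference was -0.50 (SE 0.24, adjusted p = 0.178) under CsA and -0.71 (SE 0.24, adjusted p = 0.0533) in control.

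Of 7 spindle motors and assembly factors, 6 fell in control cells (13.7% of all genes) and 1 under CsA (7.58%). At 48 h, KIF11 had log2 levels of 7.70, 8.42 and 10.06 under CsA, against 7.87, 8.54 and 9.34 in control. At 12 h, KIF11 had log2 levels of 9.98, 10.37 and 10.09 under CsA, against 10.24, 10.32 and 10.19 in control. KIF11, the motor that pushes spindle poles apart, was low on replicates 1 and 2 at 48 h, and under CsA its replicate 3 lay among the 12 h arrays. Between the times KIF11 had a log2 difference of -1.42 (SE 0.52, adjusted p = 0.0891) under CsA and -1.67 (SE 0.52, adjusted p = 0.0385) in control, where it passed the test. At 48 h, TPX2 had log2 levels of 10.03, 10.73 and 11.19 under CsA, against 10.36, 10.74 and 11.13 in control. At 12 h, TPX2 had log2 levels of 11.46, 11.69 and 11.57 under CsA, against 11.66, 11.75 and 11.69 in control. TPX2, which activates AURKA on the spindle, was lower on all 48 h arrays and was the member of this role that fell in both arms. Its log2 difference was -0.92 (SE 0.26, adjusted p = 0.0442) under CsA and -0.95 (SE 0.26, adjusted p = 0.0263) in control. At 48 h, HMMR had log2 levels of 10.01, 10.32 and 11.34 under CsA, against 9.97, 10.21 and 10.71 in control. At 12 h, HMMR had log2 levels of 11.37, 11.73 and 11.20 under CsA, against 11.41, 11.79 and 11.27 in control. HMMR, which codes for a spindle assembly factor and hyaluronan receptor, overlapped between the times under CsA through replicate 3 and not in control. The log2 difference of HMMR was -0.88 (SE 0.32, adjusted p = 0.0917) under CsA and -1.19 (SE 0.32, adjusted p = 0.0239) in control, where it fell. KIF2C, DLGAP5 and ASPM, a microtubule depolymerase and 2 spindle proteins, fell in control, with log2 differences of -1.05, -1.30 and -1.23 under CsA and -1.14, -1.45 and -1.42 in control. NUSAP1, a spindle-bundling protein, did not pass in either arm, with log2 differences of -0.64 under CsA and -0.62 in control.

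Of 8 genes of the central spindle and of cytokinesis, 6 fell in control cells (13.7% of all genes) and 3 under CsA (7.58%). At 48 h, PRC1 had log2 levels of 8.99, 9.63 and 10.38 under CsA, against 9.15, 9.64 and 10.04 in control. At 12 h, PRC1 had log2 levels of 10.54, 10.78 and 10.55 under CsA, against 10.75, 10.86 and 10.81 in control. PRC1 bundles the microtubules of the central spindle, and its 48 h arrays did not overlap its 12 h arrays. PRC1 had a log2 difference of -0.95 (SE 0.31, adjusted p = 0.0624) under CsA and -1.20 (SE 0.31, adjusted p = 0.0199) in control, where it passed the test. At 48 h, KIF4A had log2 levels of 7.79, 8.65 and 9.38 under CsA, against 8.21, 8.58 and 9.15 in control. At 12 h, KIF4A had log2 levels of 9.64, 10.12 and 9.85 under CsA, against 9.91, 10.32 and 10.05 in control. KIF4A, the motor that works with PRC1, fell in both arms without overlap, by a log2 difference of -1.26 (SE 0.36, adjusted p = 0.0433) under CsA and of -1.45 (SE 0.36, adjusted p = 0.0173) in control. At 48 h, ANLN had log2 levels of 9.59, 10.51 and 12.02 under CsA, against 9.98, 10.72 and 11.59 in control. At 12 h, ANLN had log2 levels of 12.14, 12.39 and 12.38 under CsA, against 12.29, 12.48 and 12.51 in control. Anillin, the product of ANLN, scaffolds the contractile ring, and its 48 h arrays spread widely below the 12 h arrays. The log2 difference of ANLN was -1.59 (SE 0.54, adjusted p = 0.0705) under CsA and -1.66 (SE 0.54, adjusted p = 0.0436) in control, where it fell to a 3.17-fold lower level. At 48 h, ECT2 had log2 levels of 10.22, 11.04 and 11.48 under CsA, against 10.41, 11.49 and 11.51 in control. At 12 h, ECT2 had log2 levels of 11.68, 12.12 and 11.93 under CsA, against 11.90, 12.12 and 12.08 in control. ECT2, the exchange factor that activates RhoA at the cleavage furrow, had no overlap between the times, yet its log2 difference did not pass, at -1.0 (SE 0.34, adjusted p = 0.0744) under CsA and -0.90 (SE 0.34, adjusted p = 0.0751) in control. Of the other 4, KIF14 and RACGAP1 fell in both arms and KIF20A in control, with log2 differences of -1.23, -0.85 and -1.57 under CsA and -1.33, -0.90 and -1.69 in control. KIF23, the motor partner of RACGAP1, did not pass, with -1.43 under CsA and -1.30 in control.

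Exit from mitosis was represented by 3 genes, of which 2 fell in control cells (13.7% of all genes) and 1 under CsA (7.58%). At 48 h, CDC20 had log2 levels of 9.93, 10.29 and 10.79 under CsA, against 10.12, 10.36 and 10.68 in control. At 12 h, CDC20 had log2 levels of 11.22, 11.40 and 11.58 under CsA, against 11.36, 11.47 and 11.75 in control. CDC20, the activator of the anaphase-promoting complex, was lower on all 48 h arrays and had the lowest adjusted p of all members in both arms. It fell by a log2 difference of -1.06 (SE 0.22, adjusted p = 0.0143) under CsA and of -1.14 (SE 0.22, adjusted p = 0.00645) in control. At 48 h, UBE2C had log2 levels of 10.36, 11.35 and 12.02 under CsA, against 10.98, 11.25 and 11.87 in control. At 12 h, UBE2C had log2 levels of 12.21, 12.28 and 12.47 under CsA, against 12.28, 12.26 and 12.65 in control. UBE2C, the ubiquitin-conjugating enzyme of this complex, had no overlap between the times, and its log2 difference was -1.07 (SE 0.36, adjusted p = 0.0708) under CsA and -1.03 (SE 0.36, adjusted p = 0.0583) in control, outside the threshold in both. PTTG1, which codes for securin, had a log2 difference of -0.97 (SE 0.39, adjusted p = 0.111) under CsA and -1.21 (SE 0.39, adjusted p = 0.0428) in control, where it fell.

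At 48 h, TOP2A had log2 levels of 11.02, 11.43 and 12.43 under CsA, against 11.40, 11.79 and 12.15 in control. At 12 h, TOP2A had log2 levels of 12.49, 12.67 and 12.57 under CsA, against 12.84, 12.71 and 12.63 in control. TOP2A, which untangles sister chromatids, had its 48 h arrays below its 12 h arrays in both arms. TOP2A had a log2 difference of -0.95 (SE 0.31, adjusted p = 0.0614) under CsA and -0.95 (SE 0.31, adjusted p = 0.0432) in control, where it passed. At 48 h, MKI67 had log2 levels of 8.97, 9.70 and 10.72 under CsA, against 9.14, 9.69 and 10.47 in control. At 12 h, MKI67 had log2 levels of 10.89, 10.93 and 10.87 under CsA, against 11.29, 11.13 and 10.94 in control. MKI67, which codes for the proliferation antigen Ki-67, had no overlap between the times either. Its log2 difference was -1.10 (SE 0.41, adjusted p = 0.0916) under CsA and -1.35 (SE 0.41, adjusted p = 0.0343) in control, where it fell.

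**Figure D3:**
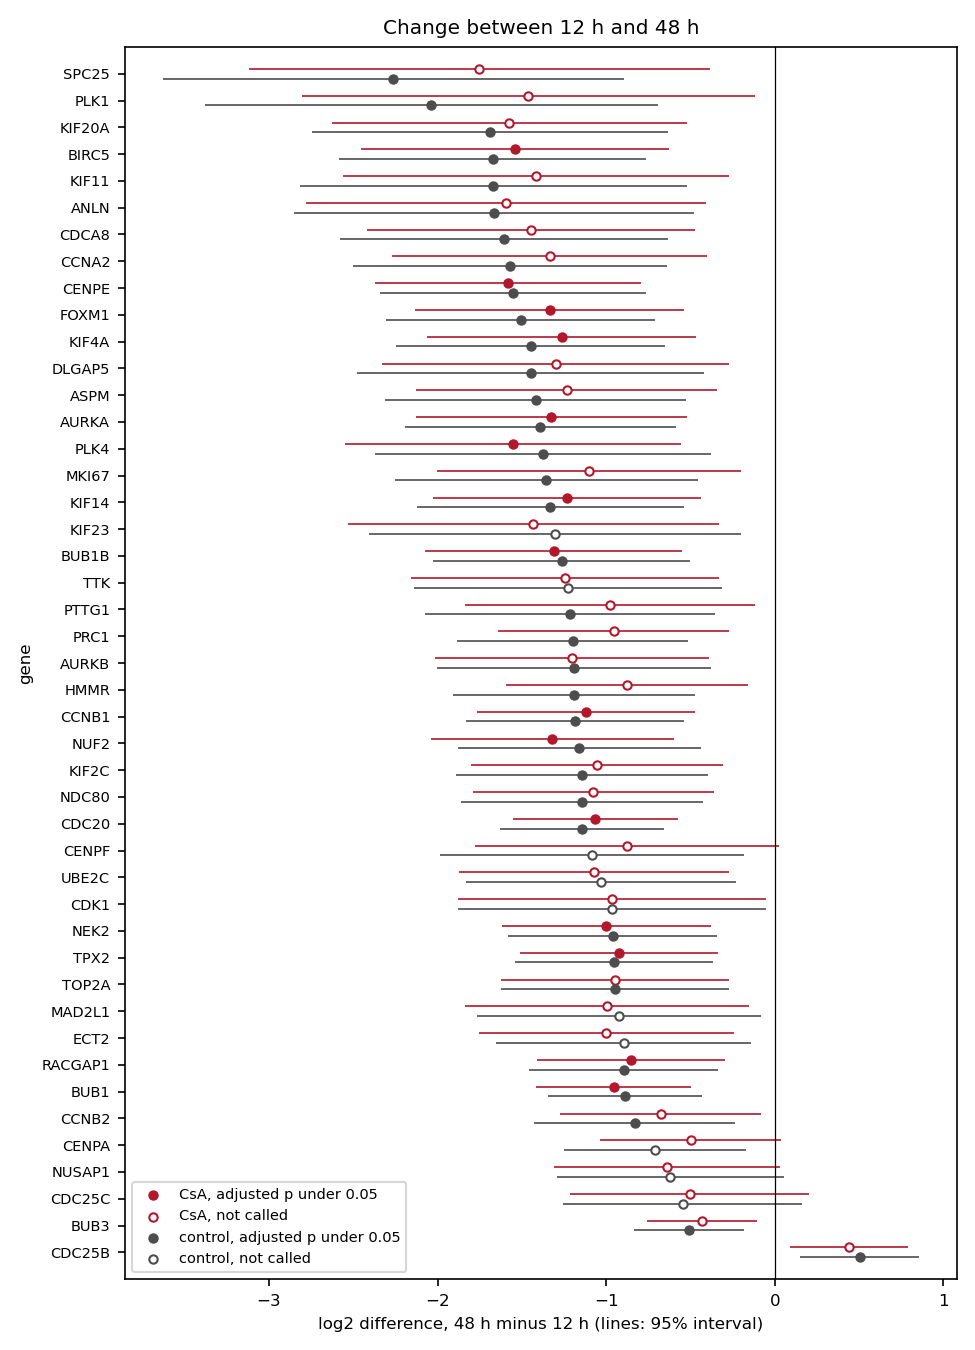
Log2 difference between 48 h and 12 h (horizontal axis) for each of 45 genes (rows, ordered by the control value) under CsA (upper, red) and in control (lower, grey), with 95% intervals as lines. Filled points passed an adjusted p of 0.05, 15 below 0 under CsA (7.58% of all genes) and 34 below 0 in control (13.7%). Every point but those of CDC25B lies below 0.

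Read over arrays, all 48 h values lay below all 12 h values for 35 of 45 members under CsA, where 18.9% of all genes tested did so, and for 44 of 45 in control cells, where 25.2% did. The 10 exceptions under CsA were CCNB2, CDK1, CDC25B, CDC25C, MAD2L1, CENPA, KIF11, NUSAP1, HMMR and PTTG1, and in control the exception was CDC25B, whose 48 h arrays all lay above its 12 h arrays, as for 24.9% of all genes. Under CsA 0 members did that, against 16% of all genes. Unadjusted p was under 0.05 for 41 members under CsA, against 33.2% of all genes, and for 43 in control, against 41.8%. By role, the median log2 difference was -0.82 for cyclins and their partners and -1.45 for the passenger complex under CsA, the ends of its range, and -0.90 and -1.60 for these roles in control. Another 36 probe sets of 22 members passed the filter, and all had the sign of the chosen one in both arms.

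The 48 h arrays differed among themselves far more than the 12 h arrays. The median SD of the members' log2 levels was 0.77 under CsA at 48 h, 0.53 in control at 48 h, 0.14 under CsA at 12 h and 0.10 in control at 12 h, against 0.28, 0.21, 0.12 and 0.12 over all genes in the same order. Replicate 1 was the lowest and replicate 3 the highest array for 44 of 45 members in each 48 h group, where 25.7% of all genes under CsA and 23.1% in control had that order. It held in both groups for 43 members, all but CDC25B and PTTG1, and for 13.9% of all genes. Set against the control mean at 12 h, the members' median log2 difference was -1.93, -1.30 and -0.42 on replicates 1, 2 and 3 under CsA at 48 h and -1.73, -1.23 and -0.64 in control at 48 h. At 12 h it was -0.22, 0.00 and -0.12 under CsA. The genes of DNA replication had the same order of arrays, at a median of -2.13, -1.25 and -0.17 under CsA at 48 h and -1.57, -1.14 and -0.60 in control at 48 h. What separates the replicates is not given in the labels, and its part in the results was not tested.

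The counts of called members depended on single arrays, while the medians kept their direction, and the share of all genes called, in either direction as these counts are, moved too. Under CsA the count was 15, against 14.4% of all genes. It was 44 without replicate 3 of CsA at 48 h, against 37%, 2 without replicate 1 of that group, against 5.41%, and 2 without its replicate 2, against 7.46%. Without replicates 1, 2 and 3 of CsA at 12 h it was 2, 1 and 0, against 5.22%, 5.67% and 4.11% of all genes. Arrays outside this comparison enter through the pooled spread: the count was 5, 6 and 6 without replicates 1, 2 and 3 of control at 12 h, against 10.3%, 10.6% and 11%, and 6 without replicate 2 of control at 48 h, against 11.5%. In control the count was 35, CDC25B included, against 26.2% of all genes, and its highest value was 45, without replicate 3 of CsA at 48 h, against 38.4%. Without replicates 1, 2 and 3 of control at 12 h it was 7, 5 and 4, against 15%, 14.3% and 12.6%, and without replicates 1 and 2 of control at 48 h 3 and 5, against 13.5% and 13.8%. In the fits with these low counts the members were thus called, in either direction, at a share near or below that of all genes. Counted as lower alone, the shares differed between fits. Without replicate 1 of control at 12 h, 7 of 45 members were lower in control, against 7.47% of all genes, and 5 under CsA, against 5.22%. Without replicate 1 of control at 48 h, 3 were lower in control, against 6.96%. Without replicate 3 of CsA at 12 h, 0 were lower under CsA, against 2.11%. The median log2 difference ranged over -1.48 to -0.80 under CsA and -1.45 to -0.97 in control when an array was left out.

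Between CsA and control cells at 12 h the members differed little. Of 45 members 42 were below 0 and 3 above it (CDC25C, MAD2L1 and NUF2), where 54.7% of all genes tested were below 0. The sign depended on the probe set for AURKA, BIRC5, BUB3, CDC25C, ECT2, KIF23 and PLK4, where another one past the filter had the opposite sign. For KIF23 that probe set was at 0.41, against -0.05 for the chosen one. None of the 45 passed limma's test, as for all genes (0%), and 0 had an unadjusted p under 0.05, against 1.31% of all genes. The median log2 difference was -0.11, against -0.01 over all genes. The 4 members with the largest test statistics were CENPA, KIF4A, PRC1 and BUB1. CENPA had a log2 difference of -0.16 (SE 0.24, adjusted p = 1.00), with a 95% interval of -0.70 to 0.37. For KIF4A the log2 difference was -0.22 (SE 0.36, adjusted p = 1.00), with an interval of -1.02 to 0.57. The log2 differences of PRC1 and BUB1 were -0.19 and -0.12, with intervals of -0.87 to 0.50 and -0.58 to 0.33.

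Arrays with the same replicate number at the same time deviated together, so the difference was also taken within each pair. At 12 h the members' median log2 difference, CsA minus control, was -0.17, -0.02 and -0.12 in pairs 1, 2 and 3, with 43, 28 and 42 of 45 below 0. CsA was below control in all 3 pairs for 27 members, against 22.5% of all genes, and above it in all 3 for MAD2L1 alone, against 18.9%. KIF4A differed by -0.27, -0.20 and -0.20 in the 3 pairs and MKI67, the Ki-67 gene, by -0.40, -0.20 and -0.08. All 3 CsA arrays were below all 3 control arrays for 5 of 45 members, against 6.57% of all genes, and above them for 0, against 5.37%. The fit with pairs as a block called 0 members lower (0% of all genes) and 0 higher (0.0285%), with a lowest adjusted p of 0.613. In that fit 1 member had an unadjusted p under 0.05, as had 765 of all 10508 genes.

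At 48 h the members were divided, 26 below 0 and 19 above, and 0 passed the test, as for all genes (0%). None had an unadjusted p under 0.05, against 2.52% of all genes. The median log2 difference was -0.04, against -0.02 over all genes. The largest test statistics belonged to CDC25B, BUB1, PLK4 and HMMR. PLK4 had a log2 difference of -0.39 (SE 0.45, adjusted p = 0.999), with a 95% interval of -1.38 to 0.61. CDC25B, BUB1 and HMMR had log2 differences of -0.15, -0.19 and 0.26, with intervals of -0.50 to 0.20, -0.65 to 0.27 and -0.46 to 0.97.

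The pairs at 48 h did not point the same way. The members' median log2 difference was -0.21, -0.04 and 0.18 in pairs 1, 2 and 3, with 41, 28 and 8 of 45 below 0, and the median of the DNA replication genes was -0.40, -0.15 and 0.66. SPC25 differed by -0.05, 0.14 and 0.81 in pairs 1, 2 and 3, KIF11 by -0.17, -0.11 and 0.72 and BIRC5 by -0.44, 0.05 and 0.47. CsA was below control in all 3 pairs for 7 members (CCNB1, CDC25B, PLK4, BUB1, TTK, CENPE and ECT2), against 16.2% of all genes, and above it in all 3 for PLK1, CENPF and HMMR, against 13.4%. The CsA and control arrays overlapped for every member, whereas for 2.49% of all genes the CsA arrays were all lower and for 2% all higher. The median turned with single arrays: it was -0.43 without replicate 3 and 0.33 without replicate 1 of CsA, and -0.28 without replicate 1 and 0.23 without replicate 3 of control. The fit with pairs as a block called 0 members, as for all genes (0%), with a lowest adjusted p of 0.368. In that fit 2 members had an unadjusted p under 0.05, as had 1297 of all 10508 genes.

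**Figure D4:**
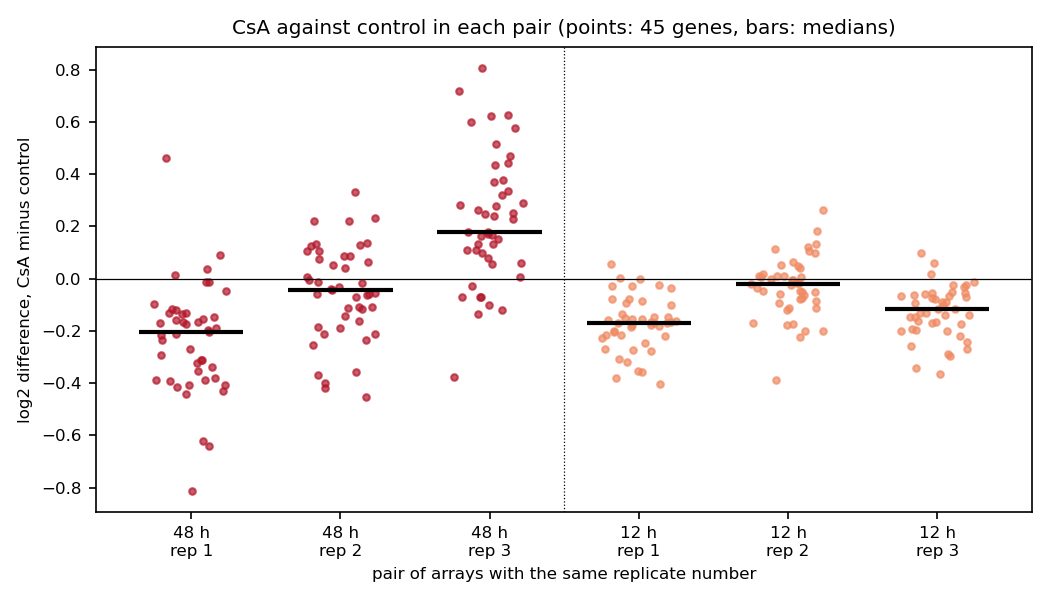
Log2 difference between the CsA and the control array of the same replicate number (vertical axis) for 45 genes (points) in the 3 pairs at 48 h and the 3 pairs at 12 h, with medians as bars. At 48 h the medians are -0.21, -0.04 and 0.18, on both sides of 0, and at 12 h they are -0.17, -0.02 and -0.12.

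The CsA effect at 48 h minus that at 12 h was above 0 for 30 members and below 0 for 15, where 50.4% of all genes were below it, with a median log2 difference of 0.07, and 0 passed the test, as for all genes (0%). No member had an unadjusted p under 0.05, against 1.54% of all genes. The largest test statistics were those of HMMR, PLK1, CENPA and SPC25, with log2 differences of effects of 0.32, 0.58, 0.21 and 0.51 and intervals of -0.70 to 1.33, -1.32 to 2.47, -0.55 to 0.97 and -1.43 to 2.44.

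Genes of the same pathway outside the 46 were read from lists chosen by textbook role. In the comparisons of CsA with control and in their difference, 0 genes of any list passed the test. Between 48 h and 12 h, 9 of 26 other kinetochore and centromere genes fell under CsA (median log2 difference -0.76) and 13 of 26 in control (-0.86). SKA3, of the complex that couples kinetochores to microtubules, fell by a log2 difference of -1.36 in control (adjusted p = 0.00606), and OIP5, which helps load CENPA, by -1.39 under CsA (adjusted p = 0.013). The other arm moved the same way. Under CsA the mean log2 level of SKA3 was 5.57 at 48 h and 6.60 at 12 h. In control that of OIP5 was 8.31 and 9.59. Of 23 other spindle and cytokinesis genes, 8 fell under CsA (median -1.06) and 14 in control (-1.04). TROAP, a spindle protein, had a log2 difference of -1.44 under CsA (adjusted p = 0.0046) and -1.49 in control (adjusted p = 0.00164). Among 14 genes of condensin, cohesin release and chromosome structure, 6 fell under CsA (median -1.07) and 7 in control (-1.33). CDCA5, which codes for sororin, a protector of cohesin, fell by a log2 difference of -1.34 under CsA (adjusted p = 0.0323) and -1.71 in control (adjusted p = 0.0084).

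Of 19 further regulators of G2/M entry and exit, 5 fell under CsA (median log2 difference -0.48) and 7 in control (-0.47). TRIP13, an ATPase that remodels MAD2, fell by a log2 difference of -2.13 under CsA (adjusted p = 0.00757), and CCNF, which codes for cyclin F, by -1.90 in control (adjusted p = 0.00236). In control the mean log2 level of TRIP13 was 8.28 at 48 h and 10.32 at 12 h. Under CsA that of CCNF was 7.10 and 8.17. Genes of DNA replication and of G1/S, which act in the phase before G2, had a median log2 difference of -1.12 under CsA, where 4 of 29 fell, and of -1.12 in control, where 10 of 29 fell. The shares of all genes that fell, 7.58% under CsA and 13.7% in control, are those given above for the members.

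**Figure D5:**
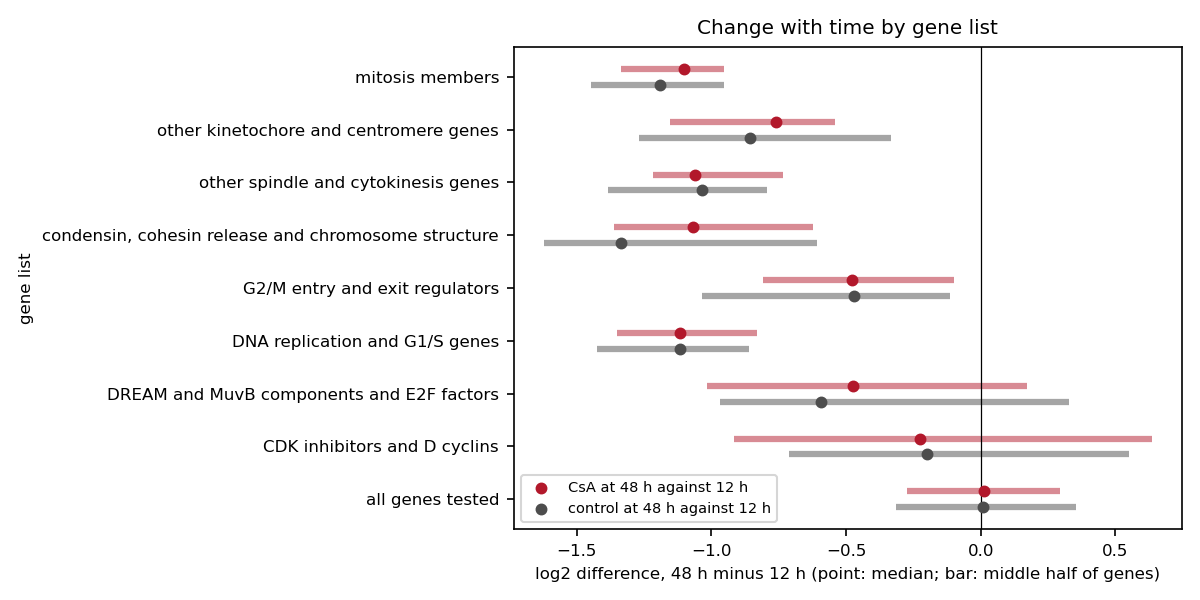
Log2 difference between 48 h and 12 h (horizontal axis) by gene list (rows) under CsA (upper, red) and in control (lower, grey), with the median as a point and the range from the lower to the upper quartile as a bar. The members lie at -1.10 and -1.19, near the replication genes at -1.12 in both arms, and all genes tested lie at 0.01.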

How the data were processed

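Total RNA of 12 cultures was hybridised to Affymetrix arrays. The deposited log2 values (the scale was read from their range) were made by the authors with GCRMA, per the submitters' processing notes, a method that corrects background from probe base content, equalises arrays by quantile normalization and merges the probes of a set. No version is stated with them, and they were used as deposited. Since arrays have no read depth, their number limits the precision.

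Of 54675 probe sets, 62 controls were left out, 41091 carried 1 gene symbol, 1801 several and 11721 none in the platform annotation. The 19775 symbols were each represented by the probe set brightest on average over the 12 arrays. A gene was tested if its probe set was above 4 on all 3 arrays of any group (10508 genes). Because the filter takes any group, a gene high in 1 group alone passes.

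Differences were tested two-sided with limma 3.58.1 in R 4.3.3, with a mean for each of 4 groups (12 arrays, 8 residual degrees of freedom) with eBayes and Benjamini-Hochberg adjustment over all 10508 genes, at 0.05. "Fell" and "rose" are used of genes past that threshold. SE and 95% intervals are moderated. The replicates are labelled as biological, and p-values measure the spread between these cultures, pooled over the 4 groups. Tests at 12 h thus carry the larger spread of the 48 h arrays. The script was tested on simulated data. Alternatives are given at the end.

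Within a time, CsA and control arrays of equal replicate number deviated alike from their groups, with correlations over all genes of 0.37, 0.53 and 0.59 at 12 h and 0.78, 0.54 and 0.74 at 48 h, so pairs are taken from the data and not from the labels. A fit with the pairs as a block had 4 residual degrees of freedom.

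The members, gene lists, markers and tests were chosen with earlier results of these data known. Arrays of 22 core genes were described in full, with the 4 members of largest absolute test statistic in each comparison and up to 2 genes of each pathway list per comparison. Promoters are RefSeq windows of GRCh38.p14, matched by symbol. AURKA, BIRC5, BUB3, FOXM1, RACGAP1, TPX2, TTK and UBE2C are without a sequence here. CIT, ANAPC1 and CDKN2C of the pathway lists were not analysed here.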

Additional observations from a re-analysis of the deposited data

Results flagged for a closer look

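For 3 members every CsA array lay below its paired control array at 12 h and above it at 48 h, a pattern that 2.71% of all genes tested had. The opposite pattern was held by 0 members and 2.64% of all genes. The difference between the effects was tested and did not pass for any of them. PLK1, the kinase of mitotic entry, differed between CsA and control by log2 differences of 0.46, 0.33 and 0.11 in pairs 1, 2 and 3 at 48 h and by -0.09, -0.39 and -0.34 at 12 h, and the effect at 48 h minus that at 12 h was 0.58 (SE 0.86, adjusted p = 1.00) on the log2 scale in limma's fit. The kinetochore gene CENPF differed by 0.09, 0.08 and 0.17 in pairs 1, 2 and 3 at 48 h and by -0.17, -0.05 and -0.07 at 12 h, and the effect at 48 h minus that at 12 h was 0.21 (SE 0.58, adjusted p = 1.00) on the log2 scale in limma's fit. HMMR, of spindle assembly, differed by 0.04, 0.11 and 0.63 in pairs 1, 2 and 3 at 48 h and by -0.04, -0.06 and -0.07 at 12 h, and the effect at 48 h minus that at 12 h was 0.32 (SE 0.46, adjusted p = 1.00) on the log2 scale in limma's fit. With pairs as a block, limma gave the PLK1 difference an SE of 0.14, an unadjusted p of 0.00448 and an adjusted p of 0.514. For HMMR these were 0.17, 0.105 and 0.609, and the adjusted p of CENPF was 0.569. In that fit 1 member had an unadjusted p under 0.05, as had 961 of all 10508 genes.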

How the results depend on the processing

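Every median over the members moved by less than the spread between replicates under each alternative in which it was taken. It was not taken in the fits with array weights, with other eBayes settings or with only the 6 arrays compared. For CsA against control at 48 h that spread was 0.76, so a median that changed sign there still counted as not moved. No member passed in a comparison of CsA with control, or in the difference of its effects, under any alternative, and the block of pairs changed no call. Between 48 h and 12 h the medians that were taken stayed below 0, while counts of called members moved. Under CsA the count of 15 (14.4% of all genes called) became 3 without the filter on low values (5%), 9 with arrays quantile normalized again (14%), 32 with array weights (9.12%) and 0 in a fit of the 6 arrays compared (0.324%). With the replicate number over both times as a block it was 38 (37 lower, against 12.4% of all genes, and 1 higher, 10.4%), and in control it was 41 in place of 35 (40 lower, 17.8%, and 1 higher, 16.5%). Those numbers did not pair the arrays across the times, where same-numbered arrays correlated between -0.14 and 0.23. In control the count became 7 without the filter (9.52%). Leaving out 1 array gave counts of 0 (4.11%) to 44 (37%) under CsA and of 3 (13.5%) to 45 (38.4%) in control. It gave median log2 differences of -1.48 to -0.80 under CsA, -1.45 to -0.97 in control, -0.17 to -0.06 for CsA against control at 12 h, -0.43 to 0.33 at 48 h and -0.29 to 0.44 for the difference of effects. In fits chosen after seeing the data, the count under CsA was 44 (42.7%) without both 48 h arrays of replicate 3 and 8 (7.8%) without both of replicate 1. Each group had 3 arrays, which with the spread at 48 h limits the precision of the effect of CsA.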

Other observations

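Genes that hold cells out of the cycle or govern its genes were divided in direction. Of 9 CDK inhibitors and D cyclins, 2 rose and 2 fell under CsA between 12 h and 48 h, and 3 rose and 2 fell in control. Log2 differences over the list ranged from -1.99 to 0.94 under CsA and from -2.28 to 1.20 in control. Their medians were -0.23 and -0.20. The genes named next had the largest test statistics and not the largest differences. CDKN1C, which codes for the CDK inhibitor p57, rose in both arms, by a log2 difference of 0.91 under CsA (adjusted p = 0.0104, limma) and 1.04 in control (adjusted p = 0.00346). CDKN1B, which codes for the inhibitor p27, rose by 0.63 under CsA (adjusted p = 0.0196). In control the mean log2 level of CDKN1B was 10.62 at 48 h and 10.07 at 12 h. CCND3, a D cyclin of G1, fell by a log2 difference of -1.17 in control (adjusted p = 0.0123). Under CsA its mean log2 level was 9.47 at 48 h and 10.39 at 12 h.

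Of 14 DREAM and MuvB components and E2F factors, 4 fell and 0 rose under CsA, and 5 fell and 1 rose in control. LIN9, a MuvB subunit, fell by a log2 difference of -1.02 under CsA (adjusted p = 0.00847) and -0.80 in control (adjusted p = 0.0129). TFDP1, the dimer partner of E2F factors, fell by a log2 difference of -1.28 in control (adjusted p = 0.013). Under CsA its mean log2 level was 9.58 at 48 h and 10.60 at 12 h. The background for these counts is 7.58% lower and 6.77% higher of all genes under CsA, and 13.7% lower and 12.5% higher in control.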
